A study of Mus musculus with 32 samples.

Results

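The 10 genes described here are given by their row names in the count tables: the matrix metalloproteinases Mmp2, Mmp3, Mmp9, Mmp12, Mmp14 and Mmp19, the tissue inhibitors of metalloproteinases Timp1, Timp2 and Timp3, and the related membrane protease Adam8. These are 10 of the 33280 genes in the tables, and all 10 passed the filter on low counts in tissue and in sorted macrophages. The genes were chosen on results of these same libraries, in particular on their ipsilateral against contralateral values in tissue and on Timp1 and Adam8 between treatments. For those comparisons in tissue the members' values are therefore given as a description, with no p-value.

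The mice were wild type C57BL/6JCrl animals of both sexes, 10 ± 3 weeks old at the first gavage. CTL mice (A2, A3, A4 and B1, n = 4) received the vehicle, an aqueous solution of hydroxypropyl-β-cyclodextrin, by daily oral gavage for 7 days. BLZ945 mice (C2, C3, C4 and D1, n = 4) received BLZ945, an inhibitor of the macrophage growth factor receptor CSF1R, at 200 mg/kg per day on the same schedule, a treatment that depletes brain macrophages, which then repopulate. All 8 mice had a thromboembolic stroke 8 weeks later, made by injecting thrombin into the middle cerebral artery, and were sampled 1 day after it, so that no uninjured animal enters any comparison. From each mouse RNA was sequenced from whole brain tissue slices and from sorted subdural border macrophages (sdCAMs, the perivascular and leptomeningeal macrophages), each taken from the hemisphere of the stroke (ipsilateral) and from the other one (contralateral). The sdCAMs were sorted as CD45+CD11b+CD206+ cells negative for Ly6C, Ly6G and CD11c, after the choroid plexus had been removed.

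Matrix metalloproteinases are zinc enzymes that cut collagens, laminins and other proteins of the extracellular matrix. They are made as inactive precursors, which plasmin and other proteases activate, and TIMP proteins block their active site. In the brain they are known for opening the blood-brain barrier after a stroke, through cuts in the basement membrane and the tight junctions of vessels. Mmp2 and Mmp9 are gelatinases, Mmp3 (stromelysin-1) also activates other MMPs, Mmp12 is the macrophage elastase, Mmp14 is bound to the cell membrane and activates pro-MMP2, and Mmp19 cuts basement membrane proteins. Timp1 is the inducible inhibitor, Timp2 also takes part in the activation of pro-MMP2, Timp3 is held in the matrix, and Adam8 is a membrane protease of leukocytes.

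The tissue libraries held 9288717 to 12781505 gene counts (16 libraries) and the sdCAM libraries used held 7397393 to 11081409 (14 libraries). The ipsilateral sdCAM libraries of A3 and C2, labelled as degraded RNA, held 54055 and 55155 counts and were left out. For A3 tissue, the labels and the column names of the count table name opposite hemispheres. The labels were followed, and the calls of members between hemispheres in tissue are also given with the A3 hemispheres exchanged. Other tissue values hold for the labelled A3 hemispheres unless the exchange is named. All 8 markers of border macrophages were detected in the sdCAMs, at a summed 1548 to 9236 CPM (counts scaled to a common library total) against 6.79 to 21.2 CPM in tissue. The 7 markers of microglia, which the CD206 gate should leave out, were also detected in every sdCAM group at 7234 to 28062 CPM, against 374 to 980.0 CPM in tissue. In tissue and in sorted cells alike, fewer cells of a type and less RNA per cell cannot be told apart.

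In tissue, Mmp3, Mmp12 and Timp1 were at or near 0 in the contralateral hemisphere and were present in every ipsilateral slice, with the labelled A3 hemispheres. Adam8 was low in the contralateral hemisphere and higher in every ipsilateral slice, whereas Mmp2, Mmp14, Timp2 and Timp3 overlapped between hemispheres in both treatments. Values are CPM after TMM scaling, and a gene is called where its Benjamini-Hochberg adjusted p over all genes tested was below 0.05 and its log2 fold change beyond 0.59, by edgeR's quasi-likelihood test. With CTL, 3 of the 10 members were called higher in the ipsilateral hemisphere (Mmp3, Mmp12 and Timp1), against 0.427% of the 18968 genes tested. With BLZ945, 4 of 10 were called higher (the same 3 and Adam8), against 1.11% of genes. None was called lower in either treatment. The ipsilateral and contralateral slices did not overlap for 4 members with CTL, against 2.45% of all genes, and for 5 members with BLZ945, against 4.2%. Since the members were chosen on this contrast, nothing is read from these shares.

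With the A3 hemispheres exchanged, 0 of 10 members were called with CTL and 1 of 10 (Adam8) with BLZ945, and over all genes 0 were called higher with CTL and 5 with BLZ945. The fitted CTL log2 fold changes were then 1.88 for Mmp3, 2.14 for Mmp12 and 1.63 for Timp1, since the A3 slice with these transcripts becomes a contralateral one, and the CTL hemispheres then overlapped for Mmp3, Mmp12, Timp1 and Adam8. Without A3, 3 members were called with CTL and 4 with BLZ945, as with the labelled hemispheres. Because all 4 groups share 1 estimate of the spread, the exchange of this CTL mouse also touches the BLZ945 calls.

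**Figure D1:**
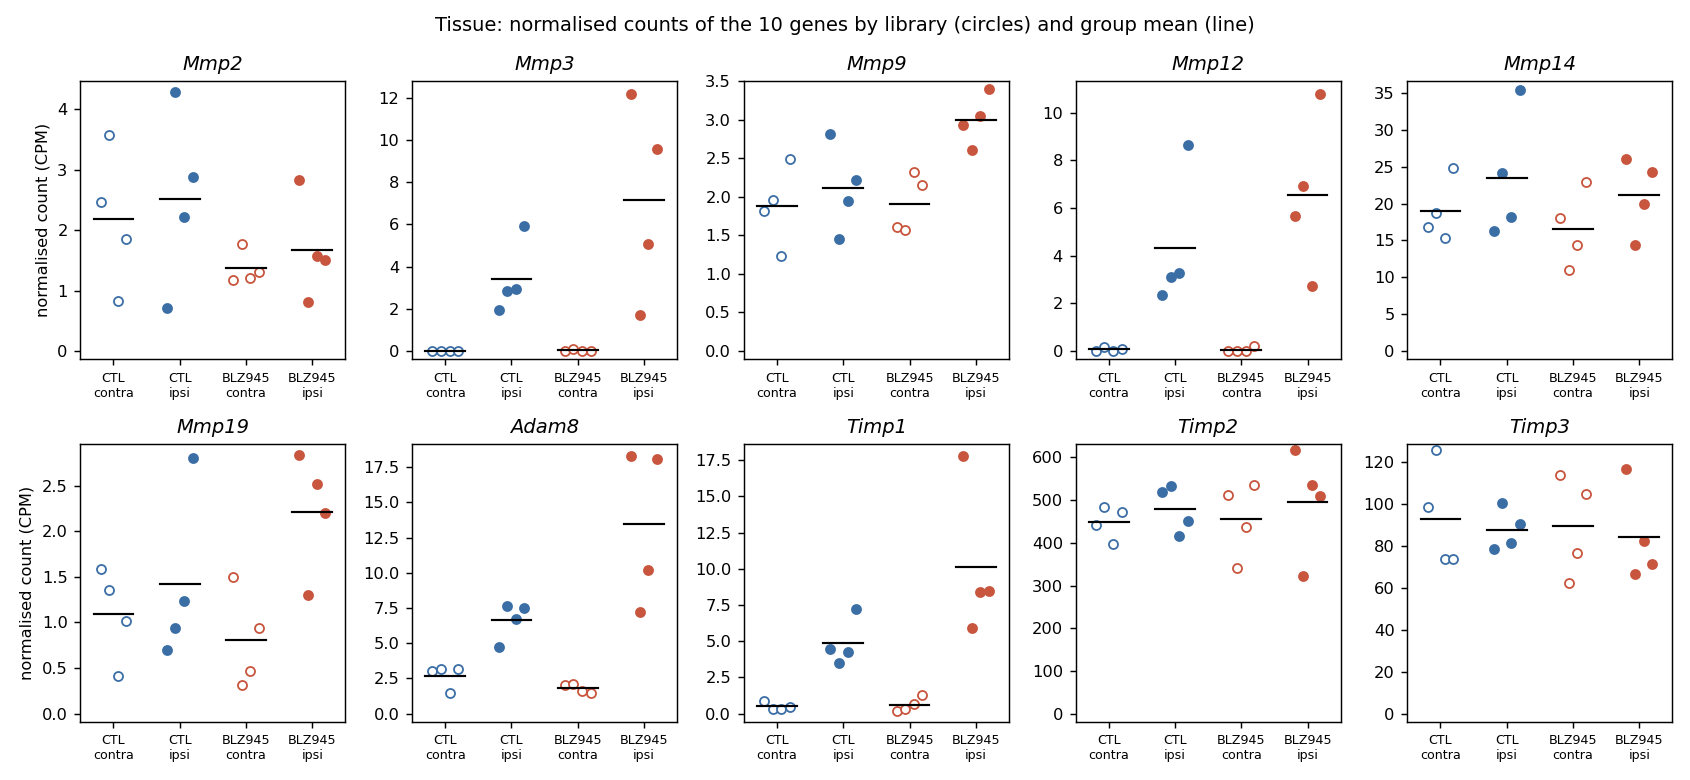
Each panel plots 1 member in tissue, with CPM on the y axis and the 4 groups (CTL and BLZ945, contralateral and ipsilateral) on the x axis. Points are mice and lines are the group means. Mmp3, Mmp12 and Timp1 sit near 0 in the contralateral slices and above them in every ipsilateral slice, while Timp2 and Timp3 lie at one level in all groups.

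Mmp3 was at 0 CPM in all 4 contralateral CTL slices and measured 1.95 (A2), 2.83 (A3), 2.92 (A4) and 5.93 (B1) CPM in the ipsilateral ones, a mean of 3.41 ± 1.74 (SD, n = 4). With BLZ945 it measured 12.2 (C2), 1.70 (C3), 5.05 (C4) and 9.59 (D1) CPM in the ipsilateral slices, a mean of 7.13 ± 4.67 (SD, n = 4). Contralateral BLZ945 slices were at 0 in 3 mice and at 0.105 CPM in C3. Every ipsilateral slice was thus above every contralateral one. In counts, the CTL slices held 163 against 0, which is at least 12.6-fold higher against a floor of 3 counts per library. The BLZ945 slices held 290 against 1, a ratio of 292 with a 95% interval of 52.0 to 11563 that covers counting error only. The fitted log2 fold changes were 8.21 (SE 1.14) and 7.62 (SE 0.94), and for genes this near 0 they depend on the prior count. The CTL call was lost with edgeR's newer quasi-likelihood method and with the A3 exchange.

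Mmp12, the elastase of macrophages, followed the same order. It measured 2.34 (A2), 3.09 (A3), 3.27 (A4) and 8.65 (B1) CPM in ipsilateral CTL slices, a mean of 4.34 ± 2.90 (SD, n = 4), against 0, 0.170, 0 and 0.0925 CPM in the contralateral slices. In BLZ945 mice it measured 5.67 (C2), 6.92 (C3), 2.73 (C4) and 10.8 (D1) CPM, a mean of 6.53 ± 3.34 (SD, n = 4), against 0 in 3 contralateral slices and 0.187 CPM in D1. B1 and D1 were the highest slices of their groups. The counts were 208 against 3 with CTL, a ratio of 65.0 (95% interval 21.9 to 318), and 263 against 2 with BLZ945, a ratio of 132 (36.3 to 1098).

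Timp1, the inducible inhibitor, was detected in every contralateral slice and was higher in every ipsilateral one. It measured 4.45 (A2), 3.52 (A3), 4.24 (A4) and 7.25 (B1) CPM in ipsilateral CTL slices, against 0.872, 0.340, 0.309 and 0.462 CPM in the contralateral ones. The BLZ945 values were 17.8 (C2), 5.92 (C3), 8.41 (C4) and 8.49 (D1) CPM, against 0.214, 0.314, 0.651 and 1.31 CPM. The groups did not overlap in either treatment, and C2 held the highest value. The log2 fold changes were 3.23 (SE 0.48) with CTL and 3.97 (SE 0.47) with BLZ945. Without mouse B1 the CTL call was lost, at a log2 fold change of 2.94.

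Adam8 measured 4.76 (A2), 7.63 (A3), 6.72 (A4) and 7.50 (B1) CPM in ipsilateral CTL slices and 3.01, 3.14, 1.44 and 3.14 CPM in the contralateral ones. With BLZ945 it measured 18.3 (C2), 7.22 (C3), 10.2 (C4) and 18.1 (D1) CPM, against 2.04, 2.09, 1.58 and 1.498 CPM. The hemispheres did not overlap in either treatment. The log2 fold change was 1.29 (SE 0.30) with CTL, which was not called, and 2.90 (SE 0.31) with BLZ945, which was called. The CTL difference was also called with the mouse as a block (1.29), without mouse C3 (1.30), by DESeq2 (1.30) and without the filter (1.29). With the A3 hemispheres exchanged it was 0.53 and not called.

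The gelatinase Mmp9 stayed near 2 CPM in CTL tissue, at 2.11 ± 0.56 (SD, n = 4) ipsilaterally and 1.88 ± 0.52 contralaterally, and the slices overlapped. BLZ945 mice had 2.93 (C2), 2.61 (C3), 3.05 (C4) and 3.40 (D1) CPM against 1.61, 1.57, 2.33 and 2.15 CPM. These hemispheres did not overlap, but the log2 fold change of 0.64 (SE 0.27) was not called. Mmp19 overlapped between hemispheres with CTL, at 1.42 ± 0.95 against 1.09 ± 0.51 CPM (SD, n = 4 each). With BLZ945 it was at 2.21 ± 0.66 against 0.804 ± 0.535 CPM, a log2 fold change of 1.46 (SE 0.51) that was not called and in which the slices overlapped.

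For the remaining 4 members, the slices overlapped between hemispheres in both treatments. Timp2 had the highest level of the 10, at 480 ± 55.6 CPM ipsilaterally and 449 ± 38.4 contralaterally with CTL (SD, n = 4), and at 496 ± 124 and 456 ± 87.2 with BLZ945. Timp3 was at 87.6 ± 9.88 and 92.8 ± 24.7 CPM with CTL and at 84.1 ± 22.4 and 89.2 ± 23.9 with BLZ945. Their log2 fold changes lay between -0.09 and 0.12, with standard errors of 0.17 to 0.22. Choroid plexus markers summed to 6.38 (contralateral C3) to 4298 CPM (ipsilateral C2) over the tissue slices. These sums and Timp3 were both highest in the same slices: A3 and C2 of either hemisphere and contralateral D1. The part of choroid plexus in the Timp3 values of tissue was not tested. Mmp14 ranged from 10.98 to 35.4 CPM and Mmp2 averaged 1.37 to 2.52 CPM per group, with log2 fold changes of 0.19 to 0.35 and standard errors of 0.27 to 0.50.

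**Figure D2:**
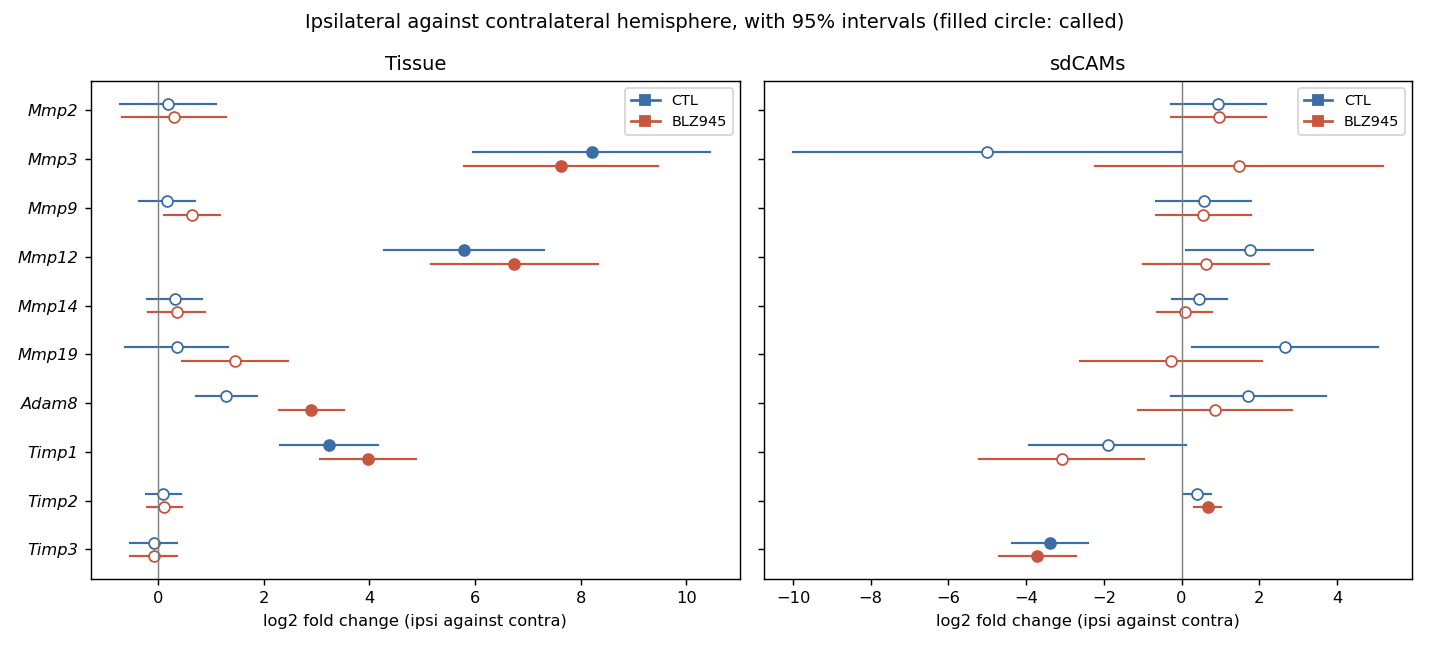
The plot gives the fitted log2 fold change of ipsilateral against contralateral for each member, with its 95% interval, in tissue and in sdCAMs of CTL and BLZ945 mice. Mmp3 and Mmp12 lie farthest to the right in tissue, and Timp3 lies near 0 in tissue and beyond -3 in sdCAMs.

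The windows just before the transcript starts of Mmp3, Mmp12, Timp1 and Adam8 are shown because these 4 genes differed most between hemispheres in tissue. RefSeq promoters (GRCm38.p6) matched 7 of the 10 members, and Mmp2, Mmp9 and Mmp19 were missing. Each sequence holds the 250 bases before a start, 5′ to 3′ on the gene's strand, with matches in capitals. The letters searched were TGANTCA, the AP-1 motif, which reads the same on both strands, and AGGAAG, an ETS motif, on both strands. The motifs do not share letters in any window shown. Mmp3 is at chr9:7445572-7445821 (+), Mmp12 has starts at chr9:7344147-7344396 (+) and chr9:7347124-7347373 (+), Timp1 is at chrX:20869916-20870165 (+) and Adam8 at chr7:139992563-139992812 (-).
Mmp3: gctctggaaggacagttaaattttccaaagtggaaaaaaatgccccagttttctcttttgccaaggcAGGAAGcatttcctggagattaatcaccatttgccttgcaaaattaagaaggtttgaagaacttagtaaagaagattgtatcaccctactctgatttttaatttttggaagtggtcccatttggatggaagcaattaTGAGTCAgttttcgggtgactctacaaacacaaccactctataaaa
Mmp12, first start: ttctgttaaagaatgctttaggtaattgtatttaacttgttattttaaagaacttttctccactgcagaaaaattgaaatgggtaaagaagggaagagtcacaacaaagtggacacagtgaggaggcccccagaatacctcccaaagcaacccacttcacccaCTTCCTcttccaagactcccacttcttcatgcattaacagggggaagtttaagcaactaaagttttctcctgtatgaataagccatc
Mmp12, second start: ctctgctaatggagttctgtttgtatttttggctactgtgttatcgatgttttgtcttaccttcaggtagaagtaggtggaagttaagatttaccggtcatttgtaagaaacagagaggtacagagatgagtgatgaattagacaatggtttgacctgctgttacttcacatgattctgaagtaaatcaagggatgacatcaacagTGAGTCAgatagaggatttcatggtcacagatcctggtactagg
Timp1: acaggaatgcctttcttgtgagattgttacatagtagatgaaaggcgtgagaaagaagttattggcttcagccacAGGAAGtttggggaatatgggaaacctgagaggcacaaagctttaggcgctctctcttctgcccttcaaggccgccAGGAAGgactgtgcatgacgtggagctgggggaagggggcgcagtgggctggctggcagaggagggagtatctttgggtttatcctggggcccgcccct
Adam8: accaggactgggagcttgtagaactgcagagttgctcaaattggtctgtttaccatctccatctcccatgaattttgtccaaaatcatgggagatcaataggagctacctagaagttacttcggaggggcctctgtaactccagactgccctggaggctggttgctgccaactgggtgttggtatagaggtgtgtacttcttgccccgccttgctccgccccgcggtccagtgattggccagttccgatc

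The AP-1 letters stood 46 to 40 bases before the Mmp3 start and 44 to 38 bases before the second Mmp12 start, and in no other member's window. They occur in 6.75% of all 32851 promoter windows of this length. The ETS letters stood 183 to 178 bases before the Mmp3 start, at 175 to 170 and 99 to 94 before the Timp1 start and, on the opposite strand, 87 to 82 before the first Mmp12 start. They also stood in the windows of Timp3 and Mmp14, which overlapped between hemispheres, and occur in 29.5% of all windows. Among the members' windows only that of Mmp3 held both, as 1.98% of all windows did, while Mmp12 held each before a different start. The windows of Adam8 and Timp2 held neither set of letters.

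No member was called between BLZ945 and CTL tissue in either hemisphere, and no member's hemisphere difference was called as changed by treatment. In ipsilateral tissue, Timp1 averaged 10.1 ± 5.21 CPM with BLZ945 and 4.87 ± 1.64 with CTL (SD, n = 4 each), a log2 difference of 1.06 (SE 0.37). Adam8 averaged 13.5 ± 5.62 and 6.65 ± 1.32 CPM, a log2 difference of 1.02 (SE 0.28), and Mmp3 differed by 1.07 (SE 0.50). The mice overlapped between treatments for all 3 genes: C3, the lowest of the BLZ945 mice in each, lay within the CTL range or below it. The extent to which Adam8 differed between hemispheres was 1.61 (SE 0.43) larger on the log2 scale with BLZ945. By edgeR 0 of 10 members and 0% of 18968 genes were called in each direction in ipsilateral tissue, where 436 genes were higher and 400 lower at an unadjusted p under 0.05. The counts were also 0 of 10 and 0% in contralateral tissue (236 and 345 genes) and for the difference of differences (204 and 152 genes), and DESeq2 called no member in any of these. The 3 counts of called members were also 0 with the A3 hemispheres exchanged.

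Few neutrophil transcripts were found in tissue. The 10 neutrophil markers summed to 4.93 to 9.89 CPM over all tissue libraries, Ly6g was at 0 in 3 of the 4 groups, and none of the 7 neutrophil or 7 monocyte markers tested was called between hemispheres. Monocyte markers summed to 47.3 to 114 CPM in contralateral and 48.8 to 160 CPM in ipsilateral slices. The number of the 7 monocyte markers detected was higher ipsilaterally, 6 against 2 with CTL and 6 against 3 with BLZ945, and their median log2 fold changes were 2.69 and 1.59. Their part in the members' tissue values was not tested.

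Per length of exon sequence (CPM per kilobase, GENCODE vM21 exons), Timp2 had the highest level of the 10 members in all 8 groups, with medians of 117 to 134 in tissue and 143 to 224 in sdCAMs, and its libraries did not overlap those of the next gene in any group. In contralateral tissue the order was Timp2, Timp3 and Mmp14, each apart from the next. In ipsilateral tissue Timp1 came after Timp2 and Timp3 with CTL, at a median of 4.90 CPM per kilobase behind 10.5 for Timp3, and level with Timp3 with BLZ945, at 9.52 and 9.42. Mmp3 reached 1.60 and 4.06 CPM per kilobase there. Inhibitors thus held the 2 highest levels per length in each of the 4 tissue groups. In contralateral sdCAMs the order again opened with Timp2 and Timp3, and with BLZ945 Timp1 came next (34.1), although Timp3 overlapped with the genes after it. In ipsilateral sdCAMs proteases followed Timp2: with CTL these were Adam8 (40.6), Mmp12 (33.0), Mmp9 (24.4) and Mmp14 (12.9), and with BLZ945 Adam8 (51.3), Mmp9 (30.0), Mmp14 (16.01) and Mmp12 (12.4). Neighbours among these 4 overlapped, and they were followed by Mmp2 (3.92 and 4.45) and Timp3 (2.99 and 3.76).

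In sdCAMs, the member that differed most clearly between hemispheres was Timp3, which was lower in every ipsilateral library of both treatments. It measured 30.6 (A2), 24.4 (A4) and 22.96 (B1) CPM in ipsilateral CTL sdCAMs, against 186 (A2), 400 (A3), 414 (A4) and 92.4 (B1) CPM contralaterally. In BLZ945 mice it measured 24.01 (C3), 30.6 (C4) and 37.9 (D1) CPM, against 378 (C2), 566 (C3), 491 (C4) and 188 (D1) CPM. The 6 ipsilateral libraries stayed within a narrow range, and the contralateral ones varied over several-fold. The log2 fold changes were -3.39 (SE 0.50, adjusted p = 0.00369, edgeR) with CTL and -3.72 (SE 0.50, adjusted p = 0.00128) with BLZ945. Timp3 was the only member called lower, against 2.26% of 18297 genes with CTL and 4.23% with BLZ945. It was called under each of the 16 alternatives in both treatments, including all 16 libraries, where the fold changes were -3.12 and -3.00.

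Timp3 is a known product of vessel cells, and vessel markers moved with it. All 6 endothelial markers were called lower in the ipsilateral sdCAM libraries in both treatments. They summed to 954 (A2), 2542 (A3), 2085 (A4) and 789 (B1) CPM contralaterally with CTL and to 69.5 to 189 CPM ipsilaterally. With BLZ945 they summed to 1393 (C2), 2170 (C3), 2715 (C4) and 1247 (D1) CPM, against 40.3 to 85.1 CPM. Contralaterally, the mice with the lowest endothelial sums, B1 and D1, also had the lowest Timp3. The 9 fibroblast and mural cell markers summed to 321 to 1375 against 78.2 to 235 CPM with CTL and to 540.3 to 1256 against 145 to 582 CPM with BLZ945, with 0 and 1 called lower. Choroid plexus markers summed to 24.5 to 8954 against 0.502 to 373 CPM with CTL and to 1412 to 37286 against 195 to 1502 CPM with BLZ945. Markers of other brain cells were lower as well. The 4 oligodendrocyte markers summed to 1719 to 4885 against 191 to 455 CPM with CTL and to 407 to 2630 against 78.2 to 150 CPM with BLZ945. The 5 astrocyte markers summed to 329 to 870 against 184 to 235 CPM and to 121 to 769 against 69.8 to 124 CPM, and the 3 red blood cell markers tested had median log2 fold changes of -3.10 and -2.75. The 8 markers of the sdCAMs themselves had medians of 0.67 and 1.41, with 0 and 3 called higher. The part of these cells in the Timp3 difference was not tested. The exons of Timp3 also share 1733 bases with Syn3 on the opposite strand, and whether reads were counted by strand is not given in the sources used here.

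**Figure D3:**
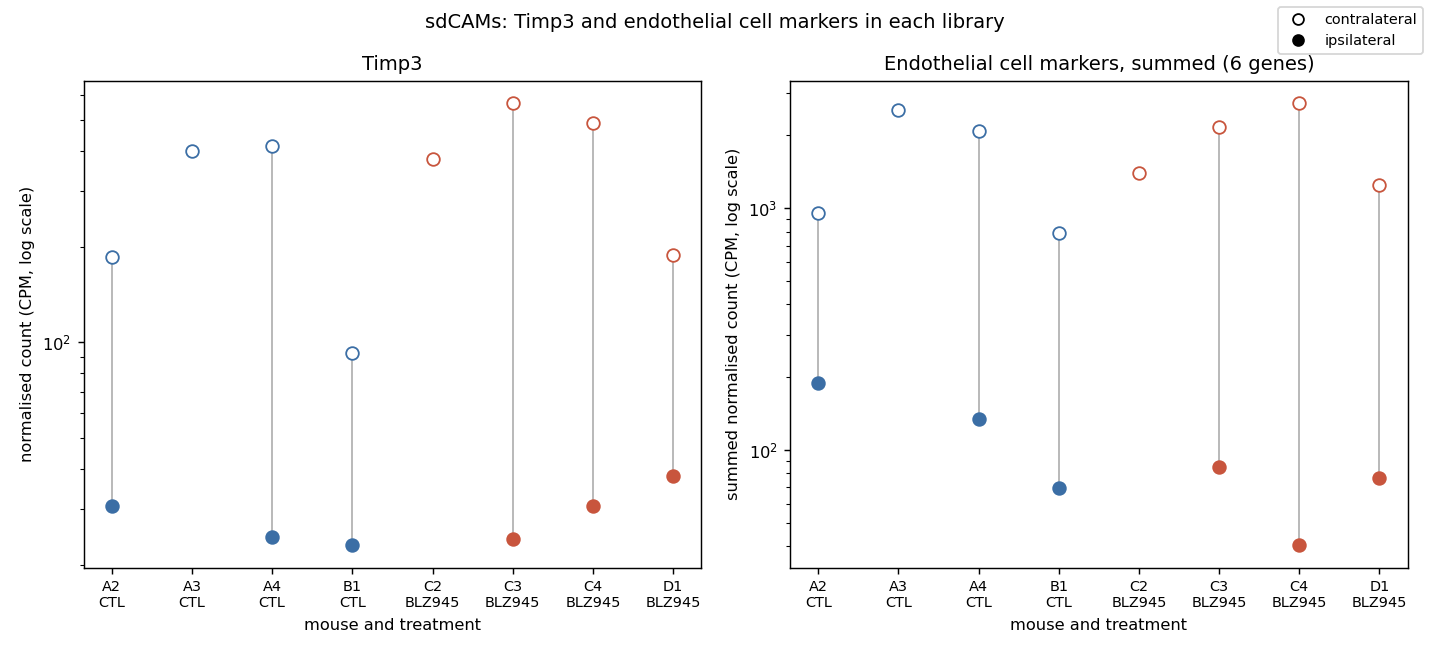
The left panel plots Timp3 CPM and the right panel the summed CPM of the 6 endothelial markers, on log y axes, with mouse and treatment on the x axis. Points are sdCAM libraries coloured by treatment, open for contralateral and filled for ipsilateral, and lines join the hemispheres of a mouse. The 6 ipsilateral libraries lie below every contralateral one in both panels, between 22.96 and 37.9 CPM of Timp3 and between 40.3 and 189 CPM of endothelial markers.

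Timp1 was also lower in ipsilateral sdCAMs, the opposite of its order in tissue, but was not called. It measured 1.13 (A2), 0 (A4) and 6.22 (B1) CPM ipsilaterally with CTL, against 11.2 (A2), 6.68 (A3), 1.69 (A4) and 17.6 (B1) CPM contralaterally, and these overlapped. The BLZ945 values were 2.19 (C3), 3.01 (C4) and 8.03 (D1) CPM against 26.5 (C2), 17.7 (C3), 72.5 (C4) and 34.1 (D1) CPM. The BLZ945 libraries did not overlap. The log2 fold changes were -1.90 (SE 1.03, adjusted p = 0.333, edgeR) and -3.09 (SE 1.08, adjusted p = 0.106). Without mouse A4 the BLZ945 difference was called (adjusted p = 0.0325, edgeR), as it was by DESeq2 (adjusted p = 0.0089) and by edgeR's newer quasi-likelihood method (adjusted p = 0.0151). Non-overlapping lower values were found for 1 member with CTL and 2 with BLZ945 (Timp1 and Timp3), against 10.2% and 12.4% of all genes. Contralateral C4, which held the highest Timp1, also held the highest sums of neutrophil (3097 CPM), endothelial (2715 CPM), choroid plexus (37286 CPM) and red blood cell markers (1159 CPM). Its sums of the other marker lists were not the highest. The part of these cells in the Timp1 values was not tested.

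Timp2 was higher in ipsilateral sdCAMs, in contrast to the other inhibitors. It measured 776 (A2), 1078 (A4) and 743 (B1) CPM ipsilaterally with CTL, against 748 (A2), 555 (A3), 624 (A4) and 702 (B1) CPM. With BLZ945 it measured 874 (C3), 802 (C4) and 991 (D1) CPM, against 462 (C2), 658 (C3), 526 (C4) and 589 (D1) CPM. The groups overlapped with CTL and did not with BLZ945. The log2 fold change was 0.40 (SE 0.18, adjusted p = 0.257, edgeR) with CTL and 0.67 (SE 0.18, adjusted p = 0.0416) with BLZ945, the only member called higher against 0.459% and 1.34% of genes. No other member was higher without overlap with BLZ945, against 7.44% of genes. The BLZ945 call was lost with the mouse as a block (0.59, adjusted p = 0.129, edgeR) and with all 16 libraries (0.31, adjusted p = 0.961). It was also lost with RLE size factors and on leaving out any one of A2, B1, C2, C3, C4 and D1. Of the alternatives, 10 in all lost the call and 6 kept it. The sdCAM markers had a median log2 fold change of 1.41 with BLZ945, and their part in the Timp2 difference was not tested. The median of all genes lay at -0.11 with CTL and -0.15 with BLZ945 on the same scale.

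**Figure D4:**
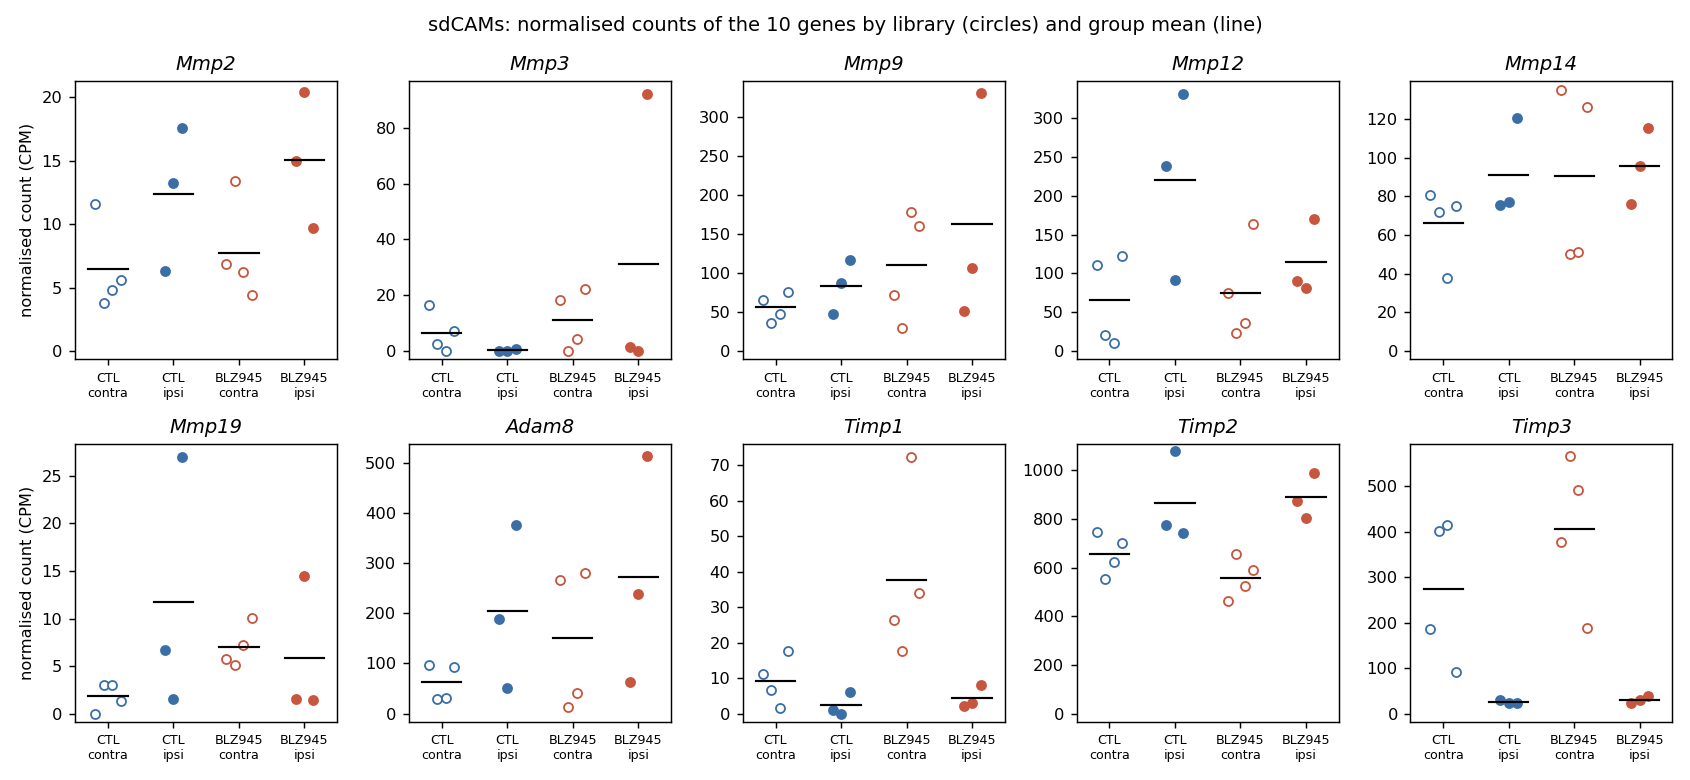
Each panel plots 1 member in sdCAMs, with CPM on the y axis and the 4 groups on the x axis. Points are mice and lines are the group means (4 contralateral and 3 ipsilateral libraries per treatment). Timp3 lies at 22.96 to 37.9 CPM in all ipsilateral libraries, and most proteases spread widely within each group.

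None of the proteases was called between hemispheres in sdCAMs. Mmp12 measured 239 (A2), 91.3 (A4) and 332 (B1) CPM in ipsilateral CTL sdCAMs, against 110 (A2), 20.8 (A3), 9.79 (A4) and 122 (B1) CPM, a log2 fold change of 1.75 (SE 0.83, adjusted p = 0.284, edgeR). BLZ945 mice had 90.1 (C3), 81.5 (C4) and 171 (D1) CPM, against 74.8 (C2), 22.6 (C3), 35.9 (C4) and 164 (D1) CPM, a log2 fold change of 0.62 (SE 0.83, adjusted p = 0.721, edgeR). Both sets of groups overlapped, yet the ipsilateral library was higher in 3 of 3 mice with both libraries in each treatment, by log2 1.11 to 3.19 with CTL and 0.06 to 1.98 with BLZ945. Mmp12 was thus present in contralateral sdCAMs although it was near 0 in contralateral tissue.

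Adam8 measured 188 (A2), 51.1 (A4) and 375 (B1) CPM against 96.8 (A2), 28.8 (A3), 30.2 (A4) and 92.5 (B1) CPM with CTL. In BLZ945 mice it measured 63.0 (C3), 238 (C4) and 513 (D1) CPM against 266 (C2), 13.2 (C3), 40.3 (C4) and 279.7 (D1) CPM. The groups overlapped, yet the ipsilateral library was the higher one in 3 of 3 mice with both libraries in each treatment. The log2 fold changes were 1.72 (SE 1.02, adjusted p = 0.378, edgeR) and 0.86 (SE 1.01, adjusted p = 0.674). With the mouse as a block the BLZ945 difference was called, at 1.89 (adjusted p = 0.0201, edgeR).

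Mmp9 measured 47.5 (A2), 86.5 (A4) and 117 (B1) CPM against 65.3 (A2), 36.1 (A3), 47.8 (A4) and 75.6 (B1) CPM with CTL. The BLZ945 values were 50.9 (C3), 106 (C4) and 330.5 (D1) CPM against 71.7 (C2), 30.0 (C3), 178 (C4) and 160.1 (D1) CPM. The hemispheres overlapped in both treatments, with log2 fold changes of 0.57 (SE 0.62) and 0.56 (SE 0.62) and adjusted p-values of 0.674 and 0.646 by edgeR. Mmp9 and Adam8 are also known products of neutrophils. The 10 neutrophil markers summed to 2031 (C2), 255 (C3), 3097 (C4) and 2709 (D1) CPM in contralateral BLZ945 sdCAMs, to 302 to 757 in contralateral CTL ones, and to 292 to 1433 in all ipsilateral ones. Among the contralateral BLZ945 libraries, C3 was lowest in Mmp9, Adam8 and these markers alike. C4, the highest in these markers and in Mmp9, held 40.3 CPM of Adam8, below C2 (266) and D1 (279.7). Ipsilateral D1 held the highest Mmp9 and Adam8 (513 CPM) of the sdCAM libraries, with 937 CPM of these markers. All 10 neutrophil markers were detected in contralateral BLZ945 sdCAMs, the group with the highest sums, and 8 or 9 of 10 in the other groups, where Mpo was at 0, as was Ly6g in ipsilateral BLZ945 sdCAMs. The part of neutrophils in these values was not tested.

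Mmp3 was detected in some sdCAM libraries only. It was at 0 (A2), 0 (A4) and 0.536 (B1) CPM ipsilaterally and at 16.6 (A2), 2.42 (A3), 0 (A4) and 7.10 (B1) CPM contralaterally with CTL. With BLZ945 it was at 1.34 (C3), 0 (C4) and 92.2 (D1) CPM ipsilaterally and at 18.2 (C2), 0 (C3), 4.44 (C4) and 22.2 (D1) CPM contralaterally. A single library, ipsilateral D1, thus set the BLZ945 mean of 31.2 ± 52.9 CPM (SD, n = 3). The log2 fold changes were -5.00 (SE 2.55, adjusted p = 0.309, edgeR) and 1.48 (SE 1.89, adjusted p = 0.705).

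Mmp14 was at 90.8 ± 25.7 CPM (SD, n = 3) ipsilaterally and 66.3 ± 19.5 (SD, n = 4) contralaterally with CTL, and at 95.6 ± 19.6 and 90.7 ± 46.2 with BLZ945. Mmp2 was at 12.4 ± 5.71 and 6.43 ± 3.503 CPM with CTL and at 15.04 ± 5.39 and 7.74 ± 3.94 with BLZ945. Its log2 fold changes of 0.94 (SE 0.63) and 0.96 (SE 0.63) were not called (adjusted p = 0.423 and 0.374, edgeR). Mmp19 was at 11.7 ± 13.5 and 1.84 ± 1.47 CPM with CTL, where B1 alone held 27.04 CPM, and at 5.82 ± 7.46 and 7.02 ± 2.22 with BLZ945, where C4 held 14.4 CPM. For these 3 genes the hemispheres overlapped in both treatments. The exons of Mmp19 share 789 bases with Tmem198b on the opposite strand.

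Between treatments, no member was called in sdCAMs of either hemisphere. In contralateral sdCAMs, Timp1 was at 37.7 ± 24.1 CPM with BLZ945 and 9.29 ± 6.76 with CTL (SD, n = 4 each), a log2 difference of 2.02 (SE 0.92, adjusted p = 0.745, edgeR). Mmp19 was at 7.02 ± 2.22 and 1.84 ± 1.47 CPM, a log2 difference of 1.92 (SE 1.15, adjusted p = 0.792, edgeR). For both genes every BLZ945 library was above every CTL one, as for 1.45% of all genes tested. The 7 monocyte markers separated in the same way, with sums of 276 to 945 CPM with BLZ945 and 114 to 206 CPM with CTL, and their part in these values was not tested. In ipsilateral sdCAMs the largest log2 difference was that of Mmp3, 7.26 (SE 2.80, adjusted p = 0.837, edgeR), which rests on D1.

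By edgeR 0 of 10 members were called in each of these comparisons, with 1 member in each hemisphere at an unadjusted p under 0.05, and 0 of 10 for the difference of differences between treatments, with 0 members under it. DESeq2 called none either. Over all genes, 0% were called higher and 0.00547%, 1 gene, lower in ipsilateral sdCAMs. The shares were 0% in both directions in contralateral sdCAMs and 0% for the difference of differences. A change of the hemisphere difference with treatment was thus not detected for any member, with standard errors as large as those given above.

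**Figure D5:**
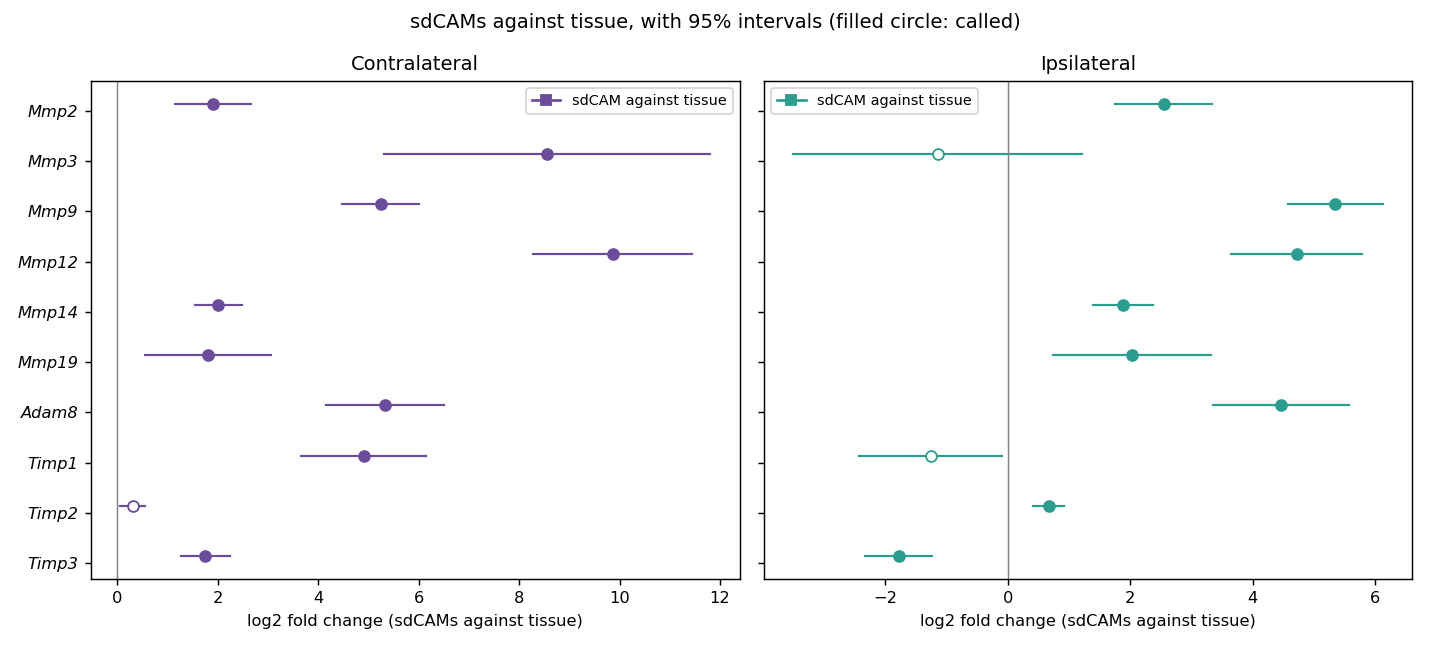
The plot gives the fitted log2 fold change of sdCAMs against tissue for each member, with its 95% interval and a panel for each hemisphere. Filled circles are called. Mmp9, Mmp12 and Adam8 lie on the side of higher levels in sdCAMs in both hemispheres. Timp3 lies on that side contralaterally and on the side of lower levels ipsilaterally.

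Most members had higher levels in the sdCAM libraries than in tissue. These libraries also held neutrophil markers at a summed 255 to 3097 CPM, against 4.93 to 9.89 CPM in tissue, and the microglia markers given above. The part of these cells in the members' levels was not tested. In the contralateral hemisphere 9 of 10 members were called higher in sdCAMs (all but Timp2), against 30.2% of 19389 genes, and 5 did not overlap with tissue (Mmp9, Mmp12, Mmp14, Timp1 and Adam8), against 19.4%. The members were chosen in part on these tissue values, so nothing is read from these shares. The largest log2 differences, given as a description, were 9.86 (SE 0.81) for Mmp12, 8.56 (SE 1.66) for Mmp3, 5.33 (SE 0.60) for Adam8 and 5.24 (SE 0.39) for Mmp9. On the scale of the joint fit, Mmp12 spanned 9.30 to 159 CPM in 8 contralateral sdCAM libraries, with a median of 53.8, and 0 to 0.193 CPM in 8 tissue slices. With the A3 hemispheres exchanged the same number of members was called in each hemisphere, and the contralateral log2 difference of Mmp3 was 5.58. Mmp9 spanned 28.9 to 171 CPM with a median of 66.2, against 1.29 to 2.60 CPM. Timp2 was at 451 to 715 CPM in sdCAMs and 357 to 553 in tissue, a log2 difference of 0.30 (SE 0.12) that did not reach the fold threshold.

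In the ipsilateral hemisphere 7 of 10 members were called higher in sdCAMs, against 25.3% of genes, and 1, Timp3, lower, against 44.5%. The libraries did not overlap for 6 higher members (Mmp2, Mmp9, Mmp12, Mmp14, Timp2 and Adam8), against 18.7% of genes, and for 1 lower member, against 34.2%. Nothing is read from these shares either, since the tissue values had a part in the choice of members. The log2 differences of the higher members were 5.35 (SE 0.40) for Mmp9, 4.72 (SE 0.54) for Mmp12, 4.46 (SE 0.57) for Adam8, 2.54 (SE 0.41) for Mmp2, 2.03 (SE 0.66) for Mmp19, 1.88 (SE 0.25) for Mmp14 and 0.67 (SE 0.13) for Timp2. The call for Mmp19 was lost without B1 (1.55) or without C4 (1.11), and that for Timp2 was lost without A4, at 0.54. Timp3 spanned 21.4 to 35.3 CPM in sdCAMs and 70.5 to 121 CPM in tissue, a log2 difference of -1.78 (SE 0.28). Contralaterally it was higher in sdCAMs by 1.75 (SE 0.25). These differences are given as a description.

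Timp1 and Mmp3, both higher in ipsilateral than in contralateral tissue, were not higher in ipsilateral sdCAMs than in ipsilateral tissue. Both genes were chosen on their tissue values, so these differences are given as a description. Timp1 spanned 0 to 7.47 CPM in sdCAMs and 3.72 to 18.5 CPM in tissue, a log2 difference of -1.26 (SE 0.59) that was not called. It was called lower with the mouse as a block (-1.80), without B1 (-2.19) and without D1 (-1.63). DESeq2 (-1.45), RLE size factors (-1.44) and edgeR's newer quasi-likelihood method (-1.21) called it lower too. Mmp3 differed by -1.14 (SE 1.204) with ipsilateral D1 included, which was not called, and was called lower without mouse D1 (-3.76). In these fits the median of all genes lay at -0.15 contralaterally and -0.75 ipsilaterally, and the log2 differences are read against that shift.

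The genes around the members were taken by list. The lists were chosen with earlier results of these data known, so nothing is read from their counts. In tissue, the system that activates plasminogen, whose product plasmin activates pro-MMPs, had 2 of its 10 genes called higher ipsilaterally with CTL and 5 of 10 with BLZ945, and none lower. Over all genes tested, 0.427% were called higher with CTL and 1.11% with BLZ945. Serpina3n, a serine protease inhibitor of reactive astrocytes, rose by 1.89 (SE 0.28) and 2.44 (SE 0.29) on the log2 scale. The urokinase gene Plau and its receptor Plaur were called with BLZ945, at 1.97 (SE 0.34) and 2.52 (SE 0.45).

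Of the 26 inducers and transcription factors of MMP genes, 3 were called higher in tissue with CTL and 8 with BLZ945. The shares of all genes were 0.427% and 1.11%. The oncostatin M receptor gene Osmr was at 24.3 ± 2.61 against 5.51 ± 0.89 CPM with CTL and at 33.7 ± 2.79 against 5.71 ± 0.56 with BLZ945 (SD, n = 4 each), the log2 fold changes being 2.14 (SE 0.13) and 2.56 (SE 0.13). Cd44, which anchors proteases at the cell surface, rose by 2.52 (SE 0.47) and 2.61 (SE 0.46), and Stat3 by 0.67 (SE 0.09) with CTL. With BLZ945 Il1b, Lif and Spi1 rose by 4.23 (SE 0.99), 2.68 (SE 0.50) and 1.32 (SE 0.21). These tissue counts hold for the labelled A3 hemispheres, since with these exchanged 0 genes in all were called higher with CTL and 5 with BLZ945.

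Among the substrates, 1 of 16 basement membrane genes was called higher in tissue with CTL, Fn1 (0.69, SE 0.13), against 0.427% of all genes. With BLZ945, 3 of 16 were called higher, Fn1 (1.13, SE 0.13), Col4a1 (1.13, SE 0.14) and Col4a2 (0.85, SE 0.12), against 1.11%. With BLZ945, Col3a1 (1.59, SE 0.27) was the 1 gene of 16 called among interstitial matrix genes and Cdh5 (0.85, SE 0.19) the 1 of 8 among junction genes. Adamts9 (2.07, SE 0.33) and Adamts1 (1.73, SE 0.37), secreted proteoglycan proteases, were the 2 of 22 called among ADAM and ADAMTS proteases. The same 1.11% of all genes applies to these BLZ945 counts. With CTL 0 of these 3 lists' genes were called. None of the 10 other MMPs and 8 other inhibitors tested was called in tissue in either treatment, and 7 of the 17 other MMPs listed did not pass the filter on low counts.

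In sdCAMs, 4 of the 8 other inhibitors were called lower on the side of the stroke with CTL, against 2.26% of all genes, and 5 of 8 with BLZ945, against 4.23%. None was called higher, although Wfikkn2, which was not called, averaged 1.505 CPM ipsilaterally and 0.481 CPM contralaterally with CTL. Timp4, the fourth TIMP, was at 5.09 ± 5.37 against 47.9 ± 17.95 CPM with CTL (-3.24, SE 0.78) and at 5.46 ± 5.05 against 40.8 ± 16.6 with BLZ945 (-2.90, SE 0.77). Spock2, a matrix proteoglycan of neurons and astrocytes, fell by 3.11 (SE 0.45) and 4.82 (SE 0.50) on the log2 scale. The astrocyte and oligodendrocyte markers given with Timp3 were lower in the same libraries, with median log2 fold changes of -1.74 and -2.81 with CTL and -2.11 and -2.76 with BLZ945, and their part in these differences was not tested. The junction genes Cldn5 and Cdh5, which mark endothelial cells, fell by 3.88 (SE 0.61) and 4.23 (SE 0.55) with CTL and by 4.64 (SE 0.63) and 3.49 (SE 0.53) with BLZ945. They are among the vessel genes whose markers are given above, and 2 of 8 junction genes with CTL and 4 of 8 with BLZ945 were called lower. Basement membrane genes had 4 of 16 called lower in each treatment. For both lists the shares of all genes called lower were again 2.26% with CTL and 4.23% with BLZ945.

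A different set of proteases was higher in ipsilateral sdCAMs with BLZ945. Adam9, Adam10 and Adam17, sheddases of membrane proteins, were the 3 of 19 ADAM and ADAMTS genes called higher, while Adamts1 and Adamts4 were called lower. Over all genes tested, 1.34% were called higher and 4.23% lower. Adam10 was at 514 ± 98.2 CPM (SD, n = 3) against 272 ± 50.7 (SD, n = 4), a log2 fold change of 0.92 (SE 0.19, adjusted p = 0.0109, edgeR). Adam17, the sheddase of TNF, was at 332 ± 54.6 against 169 ± 43.3 CPM (0.97, SE 0.25), and Adam9 rose by 1.26 (SE 0.34). In the same comparison the sdCAM markers had a median log2 fold change of 1.41 and the microglia markers one of 0.56. The endothelial markers had a median of -4.74. The part of the mix of cells in these protease differences was not tested. With CTL 0 of 19 were called, against 0.459% of all genes higher and 2.26% lower. Adam17 was at 348 ± 31.1 against 185 ± 55.9 CPM there, and the difference between treatments was not called for any gene of these lists. Of the 12 other MMPs tested in sdCAMs, 0 were called between hemispheres.

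The profiles of 3 members were compared with those of all genes that averaged at least 1 CPM, by the correlation of log2 CPM over libraries, which share groups and scaling. In tissue (16 libraries, 14316 genes), the genes most like Timp1 were Txnrd1 (r = 0.96), Msn (r = 0.96) and Stat3 (r = 0.95). Those most like Mmp14 were Akap12 (r = 0.94), Cdc42ep4 (r = 0.92) and Irs2 (r = 0.92). In sdCAMs (14 libraries, 13827 genes), Kcna3 (r = 0.92), Plin2 (r = 0.91) and Nus1 (r = 0.90) were most like Mmp14, and Gcnt2 (r = 0.88), Arid5a (r = 0.85) and Nomo1 (r = 0.83) most like Mmp19.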

How the data were processed

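RNA was measured in whole tissue slices and sorted sdCAMs of 8 mice. Per the labels and the study's methods, the authors aligned single reads with STAR (2.7.11a) and counted them per gene with featureCounts (2.0.8). The deposited values are raw counts per gene. The genome build is not stated without ambiguity, so that only RefSeq coordinates are printed. Members and gene lists were chosen with earlier results of these data known. Columns were tied to samples by the labels.

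Genes whose counts summed to 8 or more in tissue, 7 or more in sdCAMs or 15 or more in both together were tested by edgeR's quasi-likelihood test (edgeR 4.0.16, R 4.3.3) with TMM scaling and robust dispersion, fitted as 4 group means per compartment, or as 8 groups for sdCAMs against tissue. Adjusted p-values are Benjamini-Hochberg values over all genes tested. The depth per library was 9288717 to 12781505 counts in tissue and 7397393 to 11081409 in sdCAMs, and intervals and floors of 3 counts cover counting error only. The fits were tested on simulated data. All members were named. From each list, called genes with a mean of at least 1 CPM were eligible, at most 5 per comparison by size of change, and 1 gene that this rule names is not reported here. The 4 profiles compared were those of Timp1 and Mmp14 in tissue and of Mmp14 and Mmp19 in sdCAMs.

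Both hemispheres came from the same mouse. Their deviations from the group means correlated with a median r of 0.436 in tissue (8 pairs) and 0.122 in sdCAMs (6 pairs), against -0.119 and -0.0405 between different mice, and the mouse was a block in an alternative fit. Treatments were compared between mice and could not be blocked. Other alternatives were DESeq2 (1.42.0), RLE size factors, no filter, a stricter fold, leaving out each mouse, the A3 exchange and all 16 sdCAM libraries.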

Additional observations from a re-analysis of the deposited data

Results flagged for a closer look

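Over the 56 groups of 4 libraries tested, 2 member values stood apart from the rest of their group by Dixon's criterion at its 95% critical value. The criterion is the gap to the nearest library divided by the group's range. Adam8 in contralateral CTL tissue was 1.44 CPM in mouse A4, against 3.01 to 3.14 CPM in the other mice (ratio 0.922). Mmp12 in ipsilateral CTL tissue was 8.65 CPM in mouse B1, against 2.34 to 3.27 CPM in the others (ratio 0.853). Chance alone flags about 1 in 20 groups.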

How the results depend on the processing

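Exchanging the A3 hemispheres changed the tissue counts of called members from 3 to 0 with CTL and from 4 to 1 with BLZ945, and with the mouse as a replicate block as well they were 0 and 0. In sdCAMs with BLZ945, the count went from 2 to 1 with RLE size factors, with all 16 libraries and with a log2 fold change beyond 1, and ranged from 1 to 3 on leaving out 1 mouse. Leaving out 1 mouse gave 2 to 4 called members in tissue with CTL and 4 with BLZ945. With the replicate block and the labelled hemispheres, 4 members were called in tissue with CTL, and the block changed no other call than those given in the text. Over the 32 single-member values and 539 alternatives, 494 kept direction and side of the threshold, 30 lost the call, 15 gained it and 0 changed sign.

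Counts over all genes moved more. Ipsilateral genes called higher in tissue were 81 with CTL and 210 with BLZ945, against 137 and 332 by DESeq2 and 167 and 363 with the replicate block. Leaving out 1 mouse lowered them to as few as 20 (without B1) or 25 (without A3) with CTL and 80 (without C2) with BLZ945. In sdCAMs, genes called higher and lower were 84 and 414 with CTL, against 272 and 1490 by DESeq2, 20 and 206 with the replicate block, 2 and 232 with all 16 libraries and 179 and 770 with the newer quasi-likelihood method. With BLZ945 they were 246 and 774, against 451 and 1972, 2 and 438 with all 16 libraries and 366 and 1113 with the newer method. Leaving out 1 mouse gave as few as 5 and 112 with CTL (without A4), and 13 and 285 (without C3) or 14 and 245 (without C4) with BLZ945. The A3 exchange with the block, edgeR without robust dispersion and the newer method were chosen after seeing the data, and the cause of the differences was not tested. Members at 0 to 3 counts in a group, Mmp3 and Mmp12, are limited by depth.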
